A study of Mus musculus with 6 samples.

Results

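The genes described here carry glucose into the cell, break it down to pyruvate, exchange pyruvate with lactate and pass pyruvate into the mitochondrion. They are 31 genes chosen by symbol for these roles, and each matched 1 of the 43432 identifiers in the count tables. All samples were spinal cord from C57BL/6 wildtype mice. In the injured group (SCI, n = 3 mice) 1 side of the cord was struck at cervical level 5 with 50 kdyn, and tissue was taken 4 h later. In the sham group (n = 3 mice) the overlying bone was removed without a blow, and its collection time was not used here. Counts came from reads near the 3′ end of polyadenylated transcripts, so they do not scale with transcript length. Levels are counts scaled to a common library size (CPM) after normalization by the trimmed mean of M-values (TMM), and values of 3 libraries are given in the order of the replicate numbers.

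Cells take up glucose through transporters of the SLC2 family, and hexokinase traps it as a phosphate ester. Phosphofructokinase is the committed step of glycolysis, and the bifunctional PFKFB enzymes set its speed by making or removing an activating sugar phosphate. In nervous tissue astrocytes are known for high glycolytic activity and can release lactate, which other cells take up through monocarboxylate transporters. Pyruvate dehydrogenase, held in check by its kinases, controls entry of pyruvate into the citric acid cycle.

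The libraries held 3407176 to 11543633 counts, and 13560 genes passed the filter on low counts, among them 29 of the 31 members. All 10 listed markers each of neurons, astrocytes and oligodendrocytes were tested, and none of these 30 was called between the groups. Of 10 microglia markers, all tested, 1 was called lower, P2ry12, a receptor of resting microglia, at 8.01, 6.55 and 8.68 CPM in sham and 1.45, 3.03 and 1.59 CPM after contusion (log2 difference -1.91 ± 0.37; edgeR adjusted p = 0.0157). The microglia list had 4 genes at an unadjusted p under 0.05 and a median log2 difference of -0.22, with 3 genes positive and 7 negative. In 1 gene every injured library was above every sham library, and in 2 every one was below. Over all genes tested, 7.73% were separated upward in this way and 5.94% downward. An unadjusted edgeR p under 0.05 was reached by 7.38% of all genes, and 0.929% were called. Summed, the 10 markers were at 406.5, 428.3 and 346 CPM in sham and 372.9, 379 and 460.3 CPM after contusion, with overlapping groups. The part of microglia in the members' results was not tested. A list of 14 liver transcripts took 6.41% to 11.96% of all counts in sham, highest in sham 2, and 8.06% to 8.31% after contusion. Liver transcripts were thus present in tissue labelled as spinal cord. In such bulk samples fewer cells of a type and less RNA per cell cannot be told apart.

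After contusion, 2 of the 29 tested members rose and none fell (edgeR quasi-likelihood test, calls at a Benjamini-Hochberg threshold of 0.05 across the 13560 genes). They were Hk2, the inducible hexokinase that binds mitochondria, and Pfkfb3, the PFKFB enzyme best known for favouring the kinase reaction. Of all genes tested, 0.929% were called, 0.885% higher and 0.0442% lower. At an unadjusted p under 0.05 the members that passed were again these 2, where 7.38% of all genes did. DESeq2 and limma voom called no member lower either.

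The remaining 27 members lay within 0.5 of zero on the log2 scale. This range also held 11618 of the 13560 genes tested. With SEs of 0.54 for Gapdh and 0.51 for Pfkfb2, it does not show that every such member was unchanged. Of the 29, 22 had a positive log2 difference and 7 a negative one, with a median of 0.17. Over all genes tested 49.7% were positive and the median was -0.0025. In 3 members, Hk2, Pfkfb3 and Gpi1, every injured library was above every sham library, and in none was every one below. Of all genes 7.73% were separated upward, 5.94% downward and 13.7% in either direction. Without sham 2, a choice made after seeing the data, Pfkl joined these 3, against 13.4% upward, 12.4% downward and 25.7% in either direction.

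**Figure D1:**
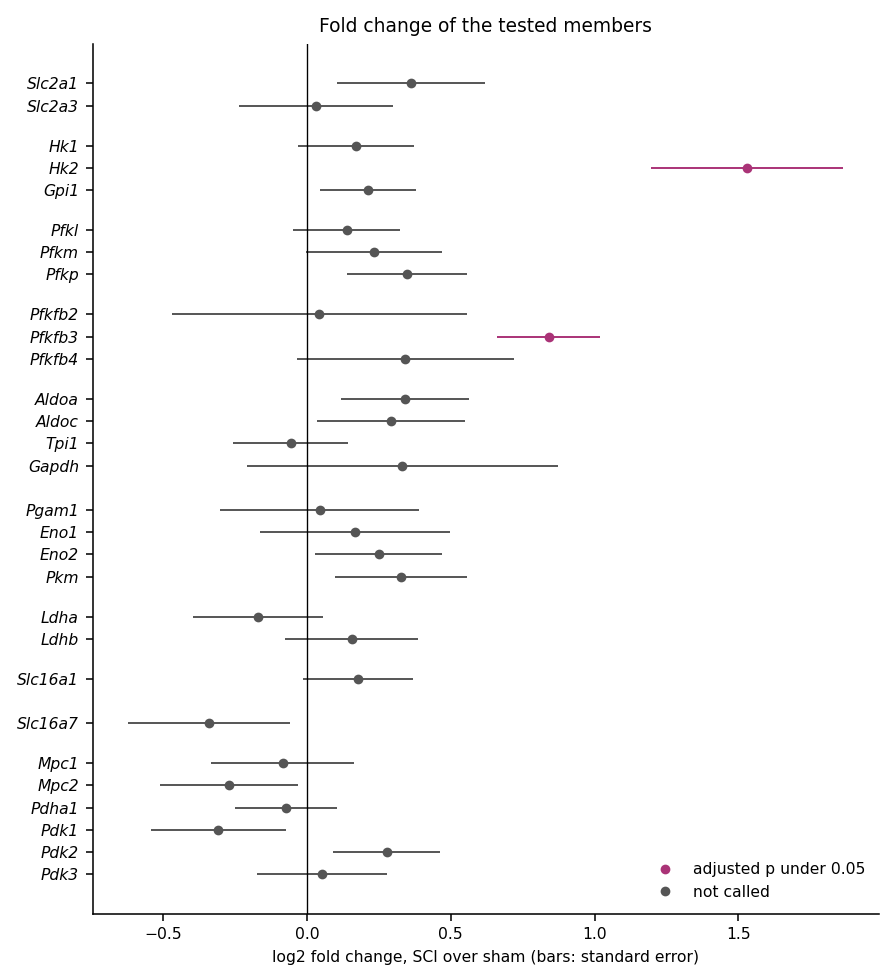
Log2 fold change of SCI over sham (x axis) for each of the 29 tested members (y axis, ordered by step of the pathway), with bars of 1 standard error. Hk2 at 1.53 and Pfkfb3 at 0.84 stand to the right, and the other 27 lie within 0.5 of zero.

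The promoters of Hk2 and Pfkfb3 are shown because these genes rose. Each holds core letters of the hypoxia response element, searched as ACGTG and GCGTG on both strands, as do most members. The RefSeq windows (GRCm38.p6) run from 250 bases before to 50 bases after a start site, 5′ to 3′, and matches or their complements are in capitals. The Hk2 window is chr6:82774405-82774704 on the minus strand. Those of Pfkfb3 are chr2:11553880-11554179 (start a) and chr2:11502041-11502340 (start b), both on the minus strand.
Hk2: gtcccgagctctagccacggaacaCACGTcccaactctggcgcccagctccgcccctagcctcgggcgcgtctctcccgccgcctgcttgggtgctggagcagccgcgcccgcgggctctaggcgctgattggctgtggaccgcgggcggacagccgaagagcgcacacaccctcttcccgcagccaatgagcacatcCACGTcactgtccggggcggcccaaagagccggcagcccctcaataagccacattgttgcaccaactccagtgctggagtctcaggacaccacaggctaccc
Pfkfb3, start a: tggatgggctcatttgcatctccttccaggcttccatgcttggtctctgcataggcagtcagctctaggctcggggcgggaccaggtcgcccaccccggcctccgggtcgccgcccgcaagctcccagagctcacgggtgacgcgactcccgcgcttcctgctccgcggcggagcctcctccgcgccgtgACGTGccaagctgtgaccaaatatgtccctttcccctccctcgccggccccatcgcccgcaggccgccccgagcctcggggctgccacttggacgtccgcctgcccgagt
Pfkfb3, start b: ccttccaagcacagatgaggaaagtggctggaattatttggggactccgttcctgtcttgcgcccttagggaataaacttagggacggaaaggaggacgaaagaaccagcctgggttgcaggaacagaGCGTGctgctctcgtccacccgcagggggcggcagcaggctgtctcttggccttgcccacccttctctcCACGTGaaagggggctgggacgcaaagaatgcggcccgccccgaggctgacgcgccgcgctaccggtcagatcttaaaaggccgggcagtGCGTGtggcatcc
ACGTG was present 2 times in the Hk2 window and 1 time at start a of Pfkfb3. At start b it was present 2 times, on opposite strands of 1 overlapping match, beside 2 matches of GCGTG. RefSeq windows were found for 29 of the 31 members, 46 in all, and not for Slc2a3 and Slc16a7. ACGTG was in 45.7% and GCGTG in 56.5% of them, against 19.6% and 32.4% of the 32851 windows of all genes. By gene, 17 of these 29 members had ACGTG and 20 had GCGTG, so neither was particular to Hk2 and Pfkfb3. Ldha, which was not called, had 5 matches of ACGTG and 2 of GCGTG in 1 window. TGANTCA, the AP-1 motif, was in 2.17% against 7.81%, and TGACGTCA, the cyclic AMP response element, in 2.17% against 1.79%, and neither was in the windows printed here. A match describes letters in these windows only.

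Neither glucose transporter passed the test. Slc2a1, the transporter of the blood-tissue barrier and of glia, was at 35.6, 38.7 and 52.3 CPM in sham and 49.7, 77.4 and 33.7 CPM after contusion. Injured libraries held both the highest and the lowest value, so the groups overlapped. The log2 difference was 0.36 ± 0.26 (SE; edgeR adjusted p = 0.858), and without SCI 2 it was -0.000700. Slc2a3, the high-affinity transporter of neurons, was at 22.2, 16.8 and 21.2 CPM in sham and 24.9, 24.3 and 11.3 CPM after contusion, a log2 difference of 0.0328 ± 0.27 with overlapping groups.

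Hexokinase showed the largest fold change among the members. Hk2 (ENSMUSG00000000628; GRCm38 chromosome 6, 82725025 to 82774454, minus strand) had 22, 29 and 17 counts in sham and 92, 45 and 55 after contusion, or 2.89, 2.79 and 4.61 CPM in sham and 11.1, 6.50 and 10.9 CPM after contusion. Every injured library was above every sham library, with SCI 2 nearest to sham. Means were 3.43 ± 1.02 CPM for sham and 9.51 ± 2.61 CPM for contusion (SD, n = 3 mice per group), a 2.89-fold rise, with a log2 difference of 1.53 ± 0.33 (SE; edgeR adjusted p = 0.0406). The call was lost without sham 1 (edgeR adjusted p = 0.263), sham 2 (0.108), SCI 1 (0.258) or SCI 3 (0.178), where the log2 difference was 1.42, 1.39, 1.39 and 1.42. It was also lost when libraries were scaled by total counts (0.0555) and with limma voom (0.0502).

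Hk1, the constitutive hexokinase of nervous tissue, had more counts than Hk2 throughout, at 89.0, 63.1 and 106 CPM in sham and 89.6, 100.2 and 98.9 CPM after contusion, and a log2 difference of 0.17 ± 0.20 with overlapping groups. Within a library, Hk2 made up 3.14%, 4.24% and 4.18% of the Hk1 and Hk2 counts in sham and 11.0%, 6.09% and 9.93% after contusion. This share does not depend on how libraries are scaled, and the groups did not overlap (exact two-sided permutation test, p = 0.1, the smallest that 3 against 3 can give; adjusted p = 0.3 over 6 shares). The 95% exact binomial interval was 2.86% to 6.03% in sham 2 and 4.48% to 8.06% in SCI 2, so the nearest libraries of the groups overlapped within counting error. Gpi1, which turns glucose 6-phosphate into fructose 6-phosphate, was at 79.4, 71.8 and 70.0 CPM in sham and 84.4, 82.7 and 89.4 CPM after contusion. Its groups did not overlap, at a log2 difference of 0.21 ± 0.17 (SE; edgeR adjusted p = 0.877).

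**Figure D2:**
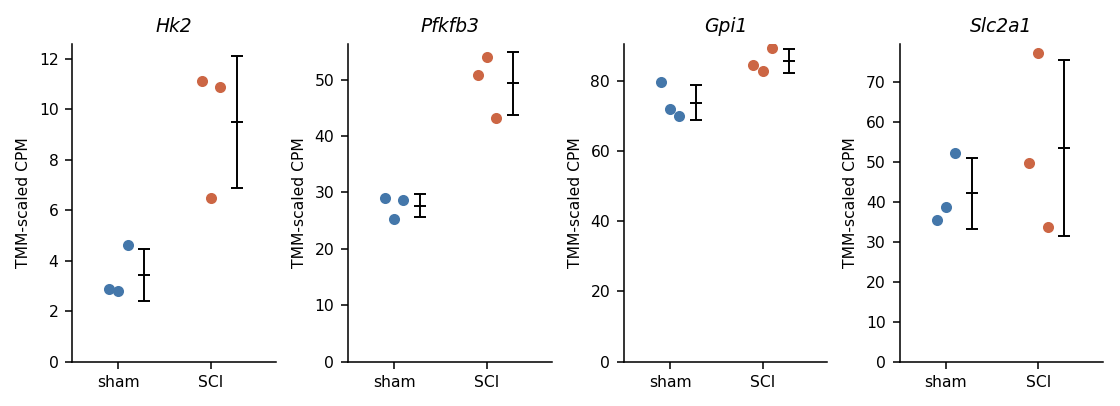
TMM-scaled CPM (y axis, from 0) of Hk2, Pfkfb3, Gpi1 and Slc2a1 in the sham and SCI libraries (x axis; points from left to right are mice 1 to 3, bars the mean and SD). For Hk2, Pfkfb3 and Gpi1 the SCI points lie above all sham points, and for Slc2a1 they range from 33.7 to 77.4 CPM on either side of the sham points.

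Among the PFKFB genes, Pfkfb3 passed the test and Pfkfb2 and Pfkfb4 did not. Pfkfb3 (ENSMUSG00000026773; GRCm38 chromosome 2, 11471433 to 11554077, minus strand) was at 29.0, 25.2 and 28.7 CPM in sham and 50.8, 54.0 and 43.2 CPM after contusion. The sham values lay close together, below all injured values. Means were 27.7 ± 2.11 CPM for sham and 49.3 ± 5.53 CPM for contusion (SD, n = 3 mice per group), a 1.79-fold rise, with a log2 difference of 0.84 ± 0.18 (SE; edgeR adjusted p = 0.0337). The call was lost without sham 1 (edgeR adjusted p = 0.197), sham 2 (0.0616), SCI 1 (0.197) or SCI 2 (0.236), where the log2 difference was 0.87, 0.77, 0.82 and 0.77, and with scaling by total counts (0.0927).

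Pfkfb2, the heart-type enzyme, was low at 0.963 to 1.90 CPM in sham and 0.991 to 1.93 CPM after contusion, a log2 difference of 0.0429 ± 0.51. Pfkfb4, a further inducible form, was at 2.41 to 4.88 CPM in sham and 3.61 to 4.56 CPM after contusion, a log2 difference of 0.34 ± 0.38. Pfkfb3 held 86.0%, 88.2% and 80.9% of the counts of these 3 genes in sham and 89.4%, 91.2% and 88.6% after contusion. The shares did not overlap (exact two-sided permutation test, p = 0.1, the smallest possible; adjusted p = 0.3 over 6 shares). The nearest libraries could not be separated within counting error, with 95% exact binomial intervals of 84.0% to 91.7% in sham 2 and 84.0% to 92.3% in SCI 3.

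Summed markers of neutrophils and erythroid cells were higher in every injured library than in every sham library, and those of monocytes overlapped. The 12 neutrophil markers summed to 31.9, 52.7 and 20.3 CPM in sham and 57.7, 80.6 and 75.9 CPM after contusion, and 7 of them were tested with none called. Of these 7, 6 had a positive log2 difference, with a median of 1.07, 5 had an unadjusted p under 0.05, and 4 had every injured library above every sham library. Among all genes tested, the shares were 49.7% positive, 7.38% at an unadjusted edgeR p under 0.05 and 7.73% separated upward. S100a9, an abundant protein of neutrophils, was at 9.59, 21.4 and 6.51 CPM in sham and 23.7, 30.8 and 28.4 CPM after contusion. The neutrophil genes Cxcr2, Csf3r and Ly6g had 0 to 9 counts in each library and were not tested. Hk3, the hexokinase of myeloid cells, had 5, 7 and 2 counts in sham and 7, 9 and 5 after contusion, or 0.657, 0.674 and 0.542 CPM in sham and 0.846, 1.30 and 0.991 CPM after contusion. All injured values of Hk3 were above the sham values, at counts too low to pass the filter. The 8 erythroid markers summed to 846, 776 and 618 CPM in sham and 2997, 1590 and 4286 CPM after contusion, and 5 of the 6 tested were called higher, none of them lower. The 8 monocyte markers summed to 412.7, 575.5 and 272.2 CPM in sham and 359.8, 378.2 and 419.7 CPM after contusion, with overlapping groups. This sum was highest in sham 2 and lowest in sham 3, the libraries with the largest and smallest share of hepatocyte counts (11.96% and 6.41%). The part of liver transcripts in the monocyte sum was not tested, so its overlap does not show that monocytes were unchanged. Of the 5 tested, none was called, 2 had a positive and 3 a negative log2 difference, with a median of -0.0273. The part of blood cells in the Hk2 and Pfkfb3 results was not tested. With the hepatocyte level as a covariate both calls held, at an edgeR adjusted p of 0.00926 for Hk2 and 0.00236 for Pfkfb3. That fit called 1.78% of all genes, against 0.929% in the main fit. Without sham 2, the library with the most hepatocyte counts, both calls were lost (edgeR adjusted p = 0.108 and 0.0616).

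No phosphofructokinase subunit was called. Pfkp, the platelet-type subunit, was at 104, 73.4 and 131 CPM in sham and 129, 132 and 129 CPM after contusion, a log2 difference of 0.35 ± 0.21 (SE; edgeR adjusted p = 0.806). Sham 2 was the lowest library and sham 3 lay among the injured ones. Pfkm, the muscle type, had a log2 difference of 0.23 ± 0.24, and Pfkl, the liver type, one of 0.14 ± 0.19. Single libraries moved these values. Pfkp went from 0.14 without sham 2 to 0.56 without sham 3, Pfkm from 0.0150 without SCI 2 to 0.45 without sham 3, and Pfkl from 0.0245 without sham 3 to 0.29 without sham 2.

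From aldolase to pyruvate kinase, 8 of 9 genes were tested and none was called. Aldoc, the aldolase of astrocytes, had the most counts of any member, at 738, 457 and 842 CPM in sham and 719, 932 and 839.5 CPM after contusion. Aldoa, the general aldolase, was at 308, 201 and 295 CPM in sham and 295, 391 and 331 CPM after contusion. In both genes sham 2 was the lowest library, and other sham values lay among the injured ones. Pkm, pyruvate kinase, was at 332, 212 and 358 CPM in sham and 346, 423 and 362 CPM after contusion. Eno2, the enolase of neurons, was at 224, 143 and 234 CPM in sham and 230.3, 270.3 and 213 CPM after contusion. Sham 2 was again the lowest of the 6 in both. The log2 differences of Aldoc, Aldoa, Pkm and Eno2 were 0.29 ± 0.26, 0.34 ± 0.22, 0.33 ± 0.23 and 0.25 ± 0.22, and without sham 2 they were 0.0616, 0.16, 0.12 and 0.0456. Tpi1, triose phosphate isomerase, was at 65.1 to 67.5 CPM in sham and 47.2 to 80.7 CPM after contusion, a log2 difference of -0.0569 ± 0.20.

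**Figure D3:**
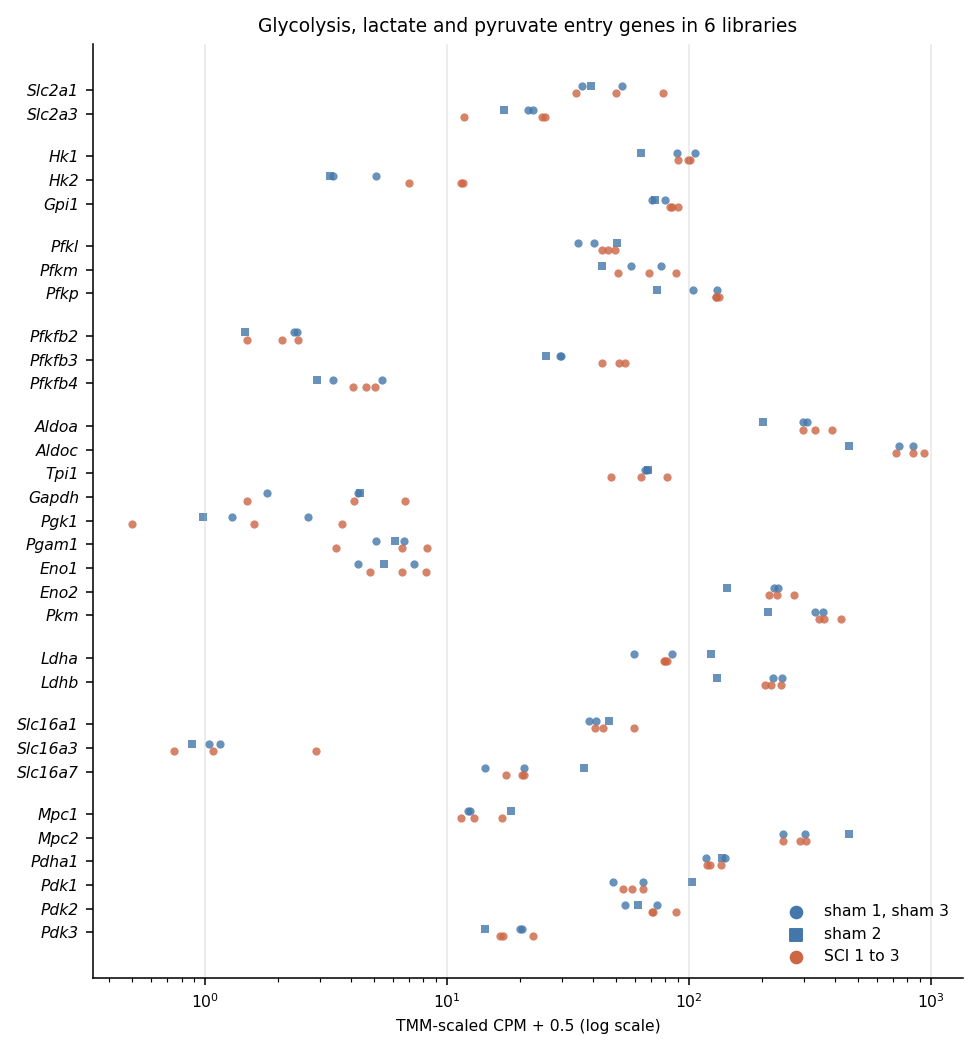
TMM-scaled CPM plus 0.5 on a log axis (x) for the 31 members (y, grouped by step) in each library, with sham 2 drawn as squares. Aldoc is the highest, Gapdh, Pgk1, Pgam1 and Eno1 are below 10 CPM, and sham 2 lies to 1 side of the other libraries for many genes.

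Sham 2, the library with the most hepatocyte counts, was the lowest of the 6 in 13 of the 29 tested members and the highest in 6, or 44.8% and 20.7%, against 23.3% and 23.5% of all genes tested. It was lowest for Hk1, Hk2, Pfkm, Pfkp, the 3 PFKFB genes, Aldoa, Aldoc, Eno2, Pkm, Ldhb and Pdk3. It was highest for Pfkl, Ldha, Slc16a7, Mpc1, Mpc2 and Pdk1. Sham 2 was also the lowest library for 6 of 10 neuron, 5 of 10 astrocyte and 6 of 10 oligodendrocyte markers, and the highest for 11 of 14 hepatocyte markers. The part of liver transcripts in these values was not tested beyond the fits without sham 2 and with the covariate.

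For 4 glycolytic genes that are usually abundant, counts were very low. Gapdh, glyceraldehyde 3-phosphate dehydrogenase and a common reference gene, had 10, 40 and 14 counts in sham and 30, 43 and 5 after contusion. Pgk1, phosphoglycerate kinase, had 6, 5 and 8 counts in sham and 9, 0 and 16 after contusion and did not pass the filter. Pgam1, phosphoglycerate mutase, was at 4.61 to 6.17 CPM in sham and 2.97 to 7.80 CPM after contusion, and Eno1, the general enolase, at 3.80 to 6.83 CPM in sham and 4.33 to 7.73 CPM after contusion. All 4 share sequence with other loci. Of the 50-base windows (the read length) along the GENCODE M21 transcript, 82.5% for Gapdh, 72.2% for Eno1, 68.0% for Pgk1 and 41.5% for Pgam1 also occurred without a mismatch in annotated transcripts of genes elsewhere. These were the 4 highest shares among the 31 members.

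In the last 300 bases, near which such reads fall, the share was 82.9% for Gapdh, with matches in 99 genes of which 96 are annotated as pseudogenes. It was 90.0% for Eno1, with matches in Eno1b, and 0% for Pgk1 and Pgam1. The 91 genes with Gapdh matches that the count tables hold had 517 counts in all, against 142 for Gapdh, and Eno1b had 144 against 237 for Eno1. The treatment of reads with several matches is not given in the sources used here, its part in the low counts was not tested, and the levels of these 4 genes are uncertain. The 3′ end of Pfkp lay wholly within the overlapping gene Pitrm1, which had 679 counts against 4664 for Pfkp. Overlapping genes also held 41.4% of the windows in the last 300 bases of Mpc1 and 21.1% of those of Pdha1. These genes were 4930506C21Rik, with 64 counts against 585 for Mpc1, and Map3k15, with 6 against 5446 for Pdha1. The division of reads between each of these 3 members and its overlapping gene is uncertain too.

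**Figure D4:**
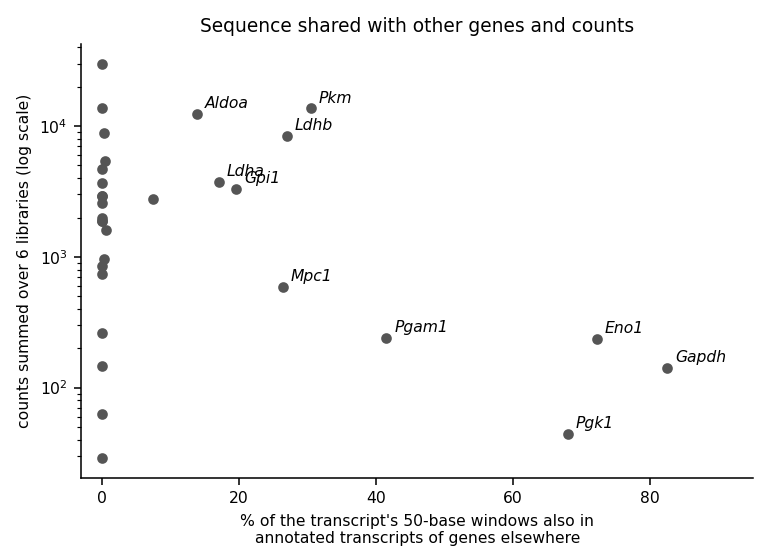
Counts summed over the 6 libraries (y axis, log scale) against the percentage of the transcript's 50-base windows that annotated transcripts of genes elsewhere also hold (x axis), 1 point for each of the 31 members. Gapdh, Eno1, Pgk1 and Pgam1 lie at the lower right with 142, 237, 44 and 241 counts.

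Lactate dehydrogenase is a tetramer of Ldha subunits, favoured in glycolytic tissue and liver, and Ldhb subunits, favoured in oxidative tissue. Ldha was at 84.4, 123 and 58.8 CPM in sham and 78.6, 79.1 and 80.3 CPM after contusion. Ldhb was at 223, 130.0 and 243 CPM in sham and 217, 239.7 and 205 CPM after contusion. Sham 2 held the highest Ldha and the lowest Ldhb, and the injured values of Ldha lay between the sham values. The log2 differences were -0.17 ± 0.23 for Ldha and 0.16 ± 0.23 for Ldhb (SE; edgeR adjusted p = 0.936 and 0.949), and without sham 2 both turned direction, to 0.13 and -0.0862.

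Ldha took 27.5%, 48.6% and 19.5% of the Ldha and Ldhb counts in sham and 26.6%, 24.8% and 28.1% after contusion. The sham share was highest in sham 2, so the injured libraries lay within the range of sham. The mean of SCI minus sham was -5.35 percentage points (exact two-sided permutation test, p = 0.8; adjusted p = 0.9 over 6 shares), and 3.01 without sham 2. The remaining shares overlapped as well. Aldoa took 25.9% to 30.5% of the Aldoa and Aldoc counts in sham and 28.3% to 29.5% after contusion. Slc2a3 took 28.8% to 38.4% of the Slc2a1 and Slc2a3 counts in sham and 23.9% to 33.4% after contusion. The Eno1 share of the Eno1 and Eno2 counts, 1.60% to 3.37% in sham and 1.58% to 3.50% after contusion, rests on the uncertain Eno1 counts.

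**Figure D5:**
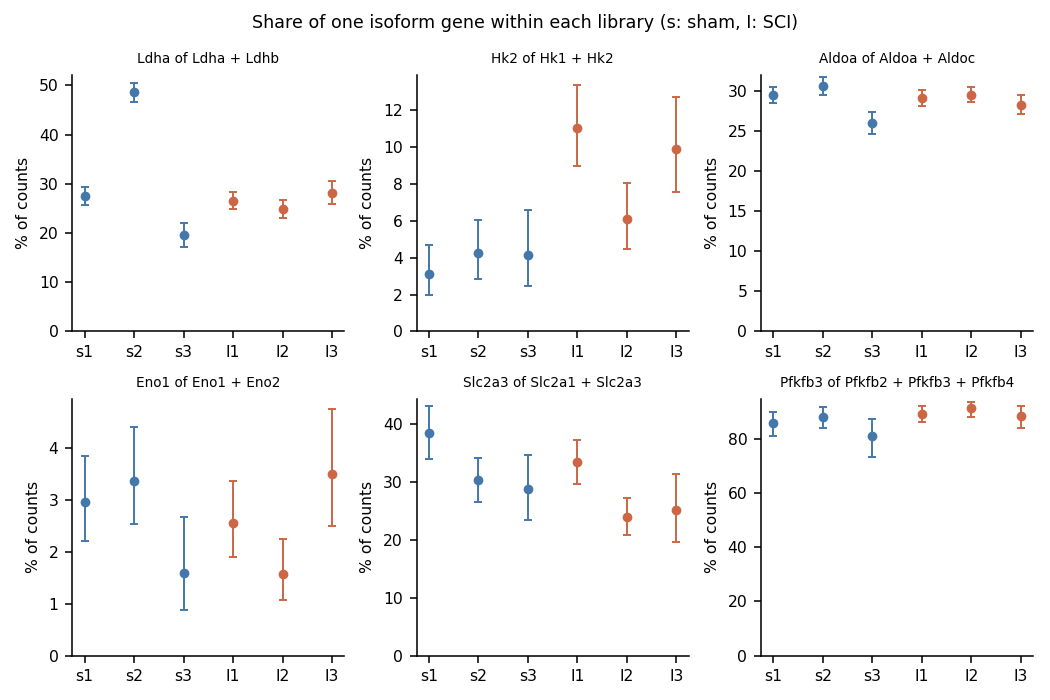
Share of counts (y axis, % from 0) that 1 gene takes among related genes within each library (x axis: s1 to s3 sham, I1 to I3 SCI), with 95% exact binomial intervals for counting error. All SCI values of the Hk2 and Pfkfb3 shares are above the sham values, and the Ldha share of sham 2 stands apart at 48.6%.

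Monocarboxylate transporters move lactate and pyruvate across the plasma membrane. Slc16a1, the transporter of endothelium and oligodendrocytes, was at 41.0, 46.0 and 38.2 CPM in sham and 43.6, 40.3 and 58.7 CPM after contusion, a log2 difference of 0.18 ± 0.19. Slc16a7, the high-affinity transporter of neurons, was at 20.2, 36.3 and 13.8 CPM in sham and 19.8, 17.0 and 20.2 CPM after contusion. Its highest value was again that of sham 2, and the log2 difference was -0.34 ± 0.28, or 0.12 without sham 2. Slc16a3, known for lactate release, had 5, 4 and 2 counts in sham and 2, 4 and 12 after contusion and did not pass the filter. Whether Slc16a3 differed was thus not tested in the main fit, and most of its injured counts came from SCI 3.

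Genes of pyruvate entry were not called. Mpc1 and Mpc2 form the mitochondrial pyruvate carrier, and Mpc2 was at 302, 458 and 244 CPM in sham and 303, 286 and 244 CPM after contusion, highest in sham 2. Mpc1 was at 11.7 to 17.8 CPM in sham and 10.9 to 16.3 CPM after contusion. Pdha1, a catalytic subunit of pyruvate dehydrogenase, was at 117 to 140.4 CPM in sham and 118 to 135 CPM after contusion, with overlapping groups. Pyruvate dehydrogenase kinases shut that enzyme down. Pdk1, a known target of hypoxia signalling, was at 64.1, 103 and 48.0 CPM in sham and 57.9, 52.8 and 64.2 CPM after contusion. Pdk2, the widely expressed kinase, was at 73.3, 61.2 and 53.7 CPM in sham and 70.7, 70.2 and 88.2 CPM after contusion. The log2 differences of Mpc2, Mpc1 and Pdha1 were -0.27 ± 0.24, -0.0846 ± 0.25 and -0.0721 ± 0.18, and those of Pdk1, Pdk2 and Pdk3 were -0.31 ± 0.24, 0.28 ± 0.19 and 0.0520 ± 0.23. Without sham 2, Mpc2 was at 0.0139, Mpc1 at 0.15 and Pdk1 at 0.0366 on that scale, each with its direction turned.

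Neighbouring pathways were counted in 8 lists with 148 entries, of which 127 were tested, 2 called higher and none lower. The shares over all genes tested were 0.885% called higher and 0.0442% lower. Both called genes were in the hypoxia list, where 25 were tested and the median log2 difference was 0.13. Hif3a, a hypoxia-inducible factor that can act as an inhibitor, had 1, 1 and 0 counts in sham and 14, 19 and 9 after contusion, a ratio of 23.6 relative to library totals (95% interval 6.13 to 201, counting error only). Its edgeR adjusted p was 0.0110, and the call was lost without sham 1 (0.0901), sham 2 (0.0561) or SCI 2 (0.112), where the log2 difference was 4.56, 4.28 and 4.00. Bnip3, a mitochondrial protein and the most abundant gene of the list, had a log2 difference of 0.0830 ± 0.23.

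No gene was called in the other lists, where 0.929% of all genes tested were called. These lists held 18 tested genes of glucose use, 13 of pyruvate use, 4 of lactate transport and 20 of glycogen. A further 10 were of the pentose phosphate path, 19 of the citric acid cycle and 18 of energy sensing. The median log2 differences of these lists were -0.0547, -0.13, 0.0781, -0.0346, 0.13, -0.14 and -0.0687 in that order. Most abundant, each in its list, were Pck1 (pyruvate use), Pygl (glycogen), Taldo1 (pentose phosphate path), Mdh1 (citric acid cycle) and Stk11 (energy sensing). In that order, their log2 differences were -0.53 ± 0.31, 0.0728 ± 0.24, 0.0769 ± 0.21, -0.23 ± 0.22 and 0.16 ± 0.19. Pck1 was also among the 14 liver transcripts, at 400.7 CPM in sham 2 and 137.5 to 177 CPM in the other libraries. Without sham 2 its log2 difference was 0.0629.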

How the data were processed

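RNA was measured in 6 libraries of mouse spinal cord. The authors deposited 1 table of whole-number, unnormalized read counts per sample. Per the labels' design text, QuantSeq Forward libraries from 1 µg of RNA were read over 50 bases and aligned by STAR 2.7.2b (mm10, Ensembl 96), and the submitters' processing notes name DESeq2 1.24.0. Not given in the sources used here are the counting tool, its use of strand and of molecular identifiers, and how reads with several matches were handled. Groups were taken from the labels, with each library as 1 mouse. No pair of libraries in a group was alike within sampling noise (chi-square per degree of freedom 6.97 to 38.0).

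Symbols matched 42462 of the 43432 identifiers, and unmatched ones held 0.0884% of counts. Positions are from GENCODE M21 (GRCm38). After filterByExpr, SCI and sham were compared by edgeR's quasi-likelihood test (edgeR 4.0.16, R 4.3.3; TMM, robust, no covariate), with Benjamini-Hochberg adjustment across 13560 genes. The SE is the size of the log2 difference over the root of F, and the biological coefficient of variation was 19.9%. Alternatives were other scalings and filters, DESeq2 1.42.0, limma 3.58.1 voom, a replicate block, a hepatocyte covariate and leaving out each library. The fit was also run on simulated counts, drawn with its own spread estimates and without an outlying library. Nothing here rests on that run. Shares were compared by exact permutation tests. Intervals cover counting error only, as do limits for a count of 0 (3 counts, 0.260 to 0.880 CPM by total counts, without TMM).

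The members and lists were chosen with earlier results of these data known. Text names all members and, of other lists, called genes and the most abundant gene, except some that are not reported here. Blood cell and microglia genes were named after their values were seen. Tpi1-rs and Mpc1l had no match.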

Additional observations from a re-analysis of the deposited data

How the results depend on the processing

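Of 29 tested members, 13 kept their direction in all 14 alternatives and 16 did not. Members called higher numbered 2, but 0 with total counts, 1 with limma voom, 0 with the replicate block and 0 to 2 without single libraries. None was called lower in any alternative. Over all genes 120 were called higher and 6 lower. These became 182 and 42 with no filter, 215 and 26 with the hepatocyte covariate, and 62 to 132 and 1 to 14 without single libraries, and DESeq2 called 11 lower. The cause was not tested.

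Replicate numbers recur in both groups, but same-numbered libraries did not deviate together (correlations over genes of -0.0848, -0.0654 and -0.172). Deviations were taken from the mean of the 3 libraries of a group and so depend on each other. These values cannot settle whether same-numbered libraries were paired. The replicate block called 81 genes higher and 1 lower, and gave Hk2 and Pfkfb3 log2 differences of 1.47 and 0.84 (edgeR adjusted p = 0.121 and 0.198). For Hif3a the edgeR adjusted p was 0.0600. No library correlated best with its own number.

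Slc2a3 turned to -0.0171 with the replicate block, Pfkfb2 to -0.0177 with the hepatocyte covariate, and Pgam1 to -0.0264 with limma voom. Where a direction turned without a single library, log2 differences ranged over Slc2a1 -0.000700 to 0.59, Slc2a3 -0.15 to 0.30, Hk1 -0.0239 to 0.34, Pfkfb2 -0.28 to 0.23, Tpi1 -0.26 to 0.11, Gapdh -0.27 to 0.72, Pgam1 -0.25 to 0.31 and Eno1 -0.0384 to 0.39. Further ranges were Ldha -0.39 to 0.13, Ldhb -0.0862 to 0.32, Slc16a1 -0.00590 to 0.28, Slc16a7 -0.58 to 0.12, Mpc1 -0.27 to 0.15, Mpc2 -0.45 to 0.0139, Pdk1 -0.52 to 0.0366 and Pdk3 -0.12 to 0.14. The last were Bnip3 -0.10 to 0.23, Pck1 -0.80 to 0.0629, Pygl -0.13 to 0.29 and Taldo1 -0.10 to 0.23. Members whose direction held ranged over Hk2 1.39 to 1.74, Gpi1 0.17 to 0.26, Pfkl 0.0245 to 0.29, Pfkm 0.0150 to 0.45, Pfkp 0.14 to 0.56, Pfkfb3 0.77 to 0.92, Pfkfb4 0.12 to 0.63, Aldoa 0.16 to 0.44, Aldoc 0.0616 to 0.47, Eno2 0.0456 to 0.37, Pkm 0.12 to 0.47, Pdha1 -0.15 to -0.0332 and Pdk2 0.15 to 0.39. Differences in shares (percentage points) ranged over -11.5 to 3.01 for Ldha, -1.03 to 1.28 for Aldoa, -0.618 to 0.388 for Eno1. Depth limits Pgk1, Slc16a3 and Pfkfb2, with 44, 29 and 63 counts in all.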
